A study of Mus musculus with 14 samples.

Results

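The miRNAs miR-221 and miR-222 were followed along the mouse epididymis through the 3 mature products that the rule named, miR-221-3p, miR-221-5p and miR-222-3p, which are 3 of 900 mature miRNAs listed for whole tissue and 3 of 677 listed for isolated epithelial cells. All 3 were found in both tables. Small RNA had been sequenced from male Swiss mice aged 8 weeks, with the epididymis divided into its proximal part (caput), its middle (corpus) and its distal part (cauda), where spermatozoa are stored. Whole tissue was represented by 3 caput, 2 corpus and 3 cauda libraries, each made from pooled tissue of 3 mice whose vessels had been perfused, luminal spermatozoa included. Epithelial cells, cleared of spermatozoa, digested and separated from the cells that attach to a culture plate, were represented by 2 libraries per region, each pooled from 9 to 12 mice. The study checked their purity, and the absence of spermatozoa, by staining and immunoblotting. A pool gives no spread between animals, so the errors below are between libraries. Total counts lay between 1243398 and 2135501 per whole tissue library and between 89039 and 362867 per epithelial library, and the smaller totals limit the precision of the epithelial values. Summed markers of epithelium (the miR-200 family and miR-205-5p) lay between 26042 and 41128 CPM (counts brought to 1 depth for all libraries of a table) in the epithelial libraries, and those of smooth muscle (miR-143 and miR-145) between 144524 and 336798 CPM, the larger sum in each of these libraries.

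A miRNA is cut from a hairpin whose 5′ and 3′ arms can each leave a mature strand, and the strand kept by an Argonaute protein pairs with mRNAs chiefly through its seed, the bases close to its 5′ end. miR-221 and miR-222 are neighbours on the X chromosome that are generally described as products of 1 primary transcript, and they share a seed. They are best known from dividing cells, where they repress the cell cycle inhibitor Cdkn1b (p27), and from the vessel wall, where they repress the receptor Kit. Partners cut from 1 transcript are often assumed to vary together, and the question put here was whether these do so between regions of the epididymis.

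The mature sequences (RefSeq, GRCm38.p6, 5′ to 3′, with bases 2 to 8, the seed, in capitals) are shown because the 3p products carry the comparison:
miR-221-3p: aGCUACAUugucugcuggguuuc
miR-222-3p: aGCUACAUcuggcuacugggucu
miR-221-5p: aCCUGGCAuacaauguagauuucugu
The 3p products shared their first 8 bases, and so their seed, and over their common length of 23 bases 12 positions differed without gaps. miR-221-5p carried a seed found in no other of 1679 mature mouse names in that table. The seed GCUACAU was carried by 1 further name, miR-1928, which was listed for neither preparation.

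The hairpin sequences, with the mature strands that RefSeq lists in capitals, show where on each precursor the counted strands lie:
Mir221: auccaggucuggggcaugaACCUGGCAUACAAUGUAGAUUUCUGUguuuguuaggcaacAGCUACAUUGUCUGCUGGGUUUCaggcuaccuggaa
Mir222: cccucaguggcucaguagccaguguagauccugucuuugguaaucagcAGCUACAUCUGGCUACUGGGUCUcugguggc
Mir221 lies at chrX:19146294-19146388 and Mir222 at chrX:19146893-19146971, both on the minus strand, with 504 bp between them. Mir222 is therefore the one nearer the 5′ end of a shared transcript. In the GENCODE annotation of the same build (release M21) no other gene overlapped the pair, and the nearest, the processed transcript Gm14636 on the same strand, was 10010 bp away.

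The partners did not change alike between caput and corpus. miR-222-3p rose about 6-fold from caput to corpus in whole tissue as well as in epithelial cells and kept its higher level in the cauda, while miR-221-3p, from the neighbouring hairpin, passed the limits for differential expression between no regions. Levels below are CPM, counts scaled by the TMM method to a common library size within each table. The term called is used where limma-voom gave an FDR (adjusted p) below 0.05 together with at least a 2-fold change.

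In whole tissue, miR-222-3p had 72.0, 76.6 and 74.6 CPM in the caput libraries, 416 and 489 in corpus libraries and 626, 471 and 549 in cauda libraries. Every corpus and cauda library lay above every caput library, and the corpus and cauda libraries overlapped. The rise from caput to corpus was 6.06-fold with a 95% interval from 4.74 to 7.74, which is 2.60 ± 0.16 (SE) on the log2 scale (adjusted p = 1.05e-06, limma). It was the only member called of 3 tested there, where 29.9% of all miRNAs tested were called, 14.1% as higher and 15.9% as lower, and 8 of 334 miRNAs had a larger rise. Over the whole duct, caput to cauda, it rose 7.31-fold, a log2 change of 2.87 ± 0.14 (SE, adjusted p = 9.12e-08, limma). It was again the only member called, against 53.2% of all miRNAs tested (27.9% higher and 25.4% lower), with 26 larger rises among 355.

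Between corpus and cauda of whole tissue, miR-222-3p was not called, with a log2 fold change of 0.27 (95% interval -0.03 to 0.57, adjusted p = 0.108 from limma). There 0 of 3 members were called, against 27.3% of all miRNAs tested (14.4% higher and 12.9% lower). None of the members had an unadjusted p under 0.05 in that comparison, and edgeR's and DESeq2's tests called none of them either. With DESeq2's size factors in limma the adjusted p was 0.0439 for miR-221-3p and 0.0454 for miR-222-3p, and without cauda replicate 2 it was 0.0306 and 0.0289, with log2 fold changes of at most 0.38 that stayed short of 2-fold. In terms of abundance, miR-222-3p stood at rank 166 of the 360 miRNAs identified in whole tissue by its mean level in the caput and at rank 83 in the corpus and 79 in the cauda.

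**Figure D1:**
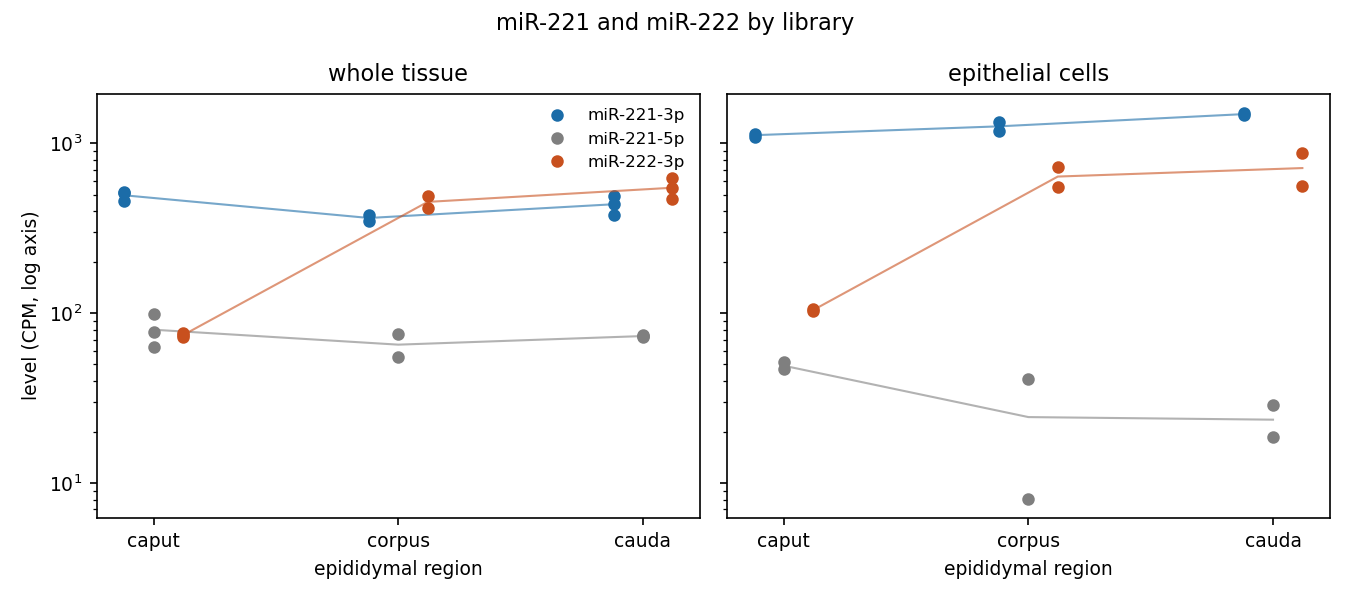
Level of miR-221-3p, miR-221-5p and miR-222-3p in CPM (log axis) in each library of whole tissue (left) and epithelial cells (right), by region. Each point is 1 library and the lines join region means. miR-222-3p goes from 72.0 to 76.6 CPM in the caput of whole tissue to at least 416 CPM in its corpus and cauda libraries, while the whole tissue points of miR-221-3p stay between 350 and 515 CPM and its epithelial points between 1099 and 1515 CPM.

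miR-221-3p, the more abundant partner in the caput, had 515, 510 and 460 CPM in the caput libraries of whole tissue, 350 and 378 in corpus libraries and 494, 380 and 442 in cauda libraries. Both corpus libraries lay below the others, and the caput and cauda libraries overlapped. Between caput and corpus it changed by -0.44 ± 0.13 (log2, SE, adjusted p = 0.0155, limma), which is below 0.05 in adjusted p but short of 2-fold, so that it was not called. With library totals in place of TMM, which moved the median change of all miRNAs up by 0.33, this value was -0.11 (adjusted p = 0.499). Further on, from corpus to cauda, the log2 fold change of miR-221-3p was 0.26 (95% interval -0.03 to 0.55, adjusted p = 0.109 from limma), close to the 0.27 of miR-222-3p. From caput to cauda it was -0.18 (95% interval -0.43 to 0.07, adjusted p = 0.173 from limma), and with library totals it was 0.17, so that its direction over the whole duct depended on the scaling.

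In epithelial cells, miR-222-3p had 103 and 106 CPM in the caput, 552 and 725 in corpus libraries and 559 and 874 in cauda libraries. These values rest on 33 counts in each caput library and on 68, 71, 150 and 183 in the libraries beyond it. The caput libraries lay below the other 4, which overlapped between corpus and cauda. The rise from caput to corpus was 5.95-fold with a 95% interval from 3.38 to 10.5, or 2.57 ± 0.35 (SE) on the log2 scale (adjusted p = 0.00296, limma). It was the only member called of 3 tested, against 12.2% of all miRNAs tested (6.34% higher and 5.85% lower), and 9 of 205 rises were larger.

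Between caput and cauda of the epithelial cells miR-222-3p rose 6.54-fold, a log2 change of 2.71 ± 0.33 (SE, adjusted p = 0.00087, limma). Here 1 of 3 members was called against 25.9% of all miRNAs tested (13.9% higher and 12% lower), and 8 of 216 rises were larger. From corpus to cauda it was 0.14 (95% interval -0.53 to 0.80, adjusted p = 0.765 from limma), and 0 of 2 members tested were called, against 10.9% of all (6.77% higher and 4.17% lower). Neither of these members had an unadjusted p under 0.05 there, and edgeR's and DESeq2's tests called neither. The split of the calls over all miRNAs moved with the scaling. With library totals the called miRNAs of whole tissue went from 47 higher and 53 lower to 76 and 35 from caput to corpus, and from 99 and 90 to 115 and 65 from caput to cauda. In epithelial cells they went from 13 and 12 to 18 and 9 (18 and 10 with DESeq2's size factors), and from 30 and 26 to 39 and 19. miR-222-3p was called as higher in these comparisons under every scaling. The interval of miR-222-3p from corpus to cauda stays within a 2-fold change in both preparations.

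miR-221-3p had 1139 and 1099 CPM in the epithelial caput libraries, 1185 and 1338 in corpus libraries and 1515 and 1462 in cauda libraries, so that the libraries of the 3 regions did not overlap. The differences were small beside those of miR-222-3p. From caput to corpus its log2 fold change was 0.17 (95% interval -0.25 to 0.59, adjusted p = 0.574 from limma), from corpus to cauda 0.24 (-0.17 to 0.66, adjusted p = 0.367) and from caput to cauda 0.41 (0.03 to 0.80, adjusted p = 0.0806). In the epithelial cells it remained the more abundant partner in every library, whereas in the corpus and cauda of whole tissue miR-222-3p was.

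**Figure D2:**
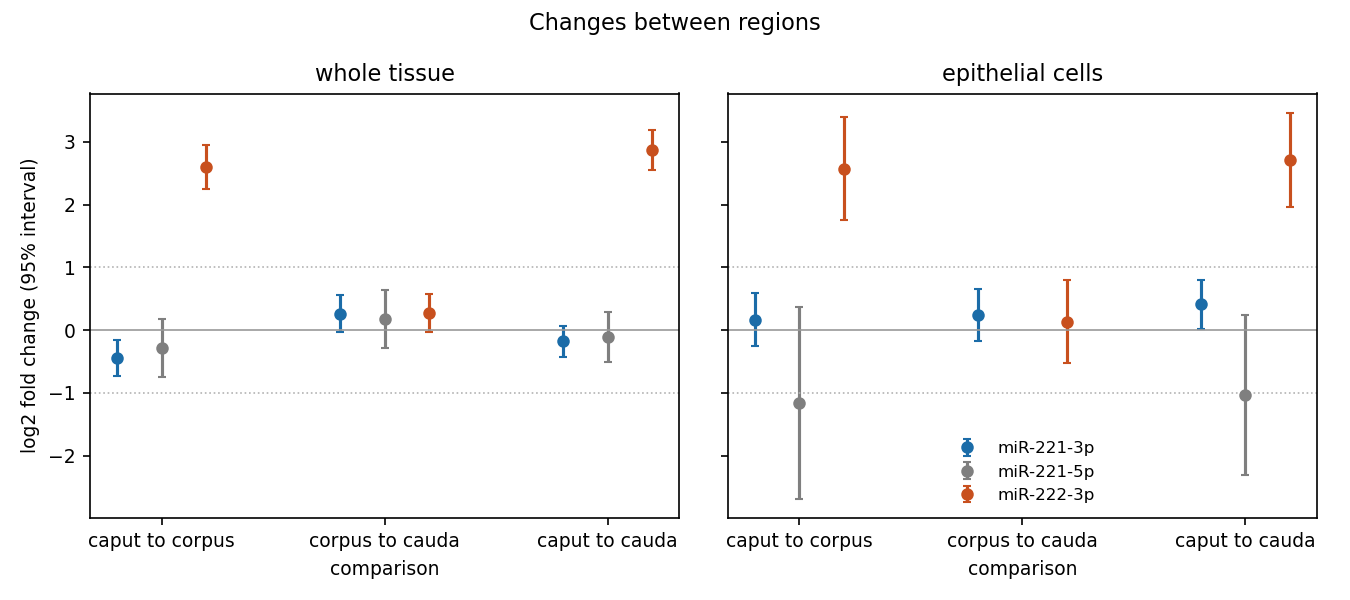
Log2 fold change of the members between regions in whole tissue (left) and epithelial cells (right), with 95% intervals from limma; dotted lines mark a 2-fold change. miR-222-3p lies above the 2-fold line from caput to corpus (2.60 and 2.57) and from caput to cauda (2.87 and 2.71), and no other point passed both limits.

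The relation between the partners was measured most directly as the ratio of their counts within a library, which needs no scaling between libraries. In whole tissue the counts of miR-222-3p and miR-221-3p were 112 and 801, 111 and 739, and 136 and 839 for caput, 557 and 468, and 746 and 577 for corpus, and 1216 and 959, 765 and 618, and 931 and 749 for cauda. The mean ratio of miR-222-3p to miR-221-3p was therefore 0.151 ± 0.0111 (SD, n = 3) for caput, 1.24 ± 0.0726 (SD, n = 2) for corpus and 1.25 ± 0.0161 (SD, n = 3) for cauda. The caput ratios lay far from the others, and those of corpus and cauda could not be separated. In epithelial cells the counts were 33 and 366, and 33 and 341 for caput, 68 and 146, and 71 and 131 for corpus, and 150 and 407, and 183 and 306 for cauda. The mean ratios were 0.0935 ± 0.00467, 0.504 ± 0.0539 and 0.483 ± 0.162 (SD, n = 2 in each), again with a step after the caput and overlap beyond it.

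From caput to corpus, the log2 ratio of the partners (0.5 counts added to each) rose by 3.04 in whole tissue and by 2.41 in epithelial cells, a mean of 2.73 over both preparations, and every corpus library lay above every caput library. A two-sided exact permutation test that exchanged region labels within each preparation gave p = 0.0167, the smallest p that 60 arrangements allow, and 0.05 after Benjamini-Hochberg adjustment over 6 ratio tests, which is not below 0.05. Over the whole duct the change came to 3.05 for whole tissue and 2.31 for epithelial cells, a mean of 2.68, with the same p = 0.0167 (exact permutation test, the smallest p that 120 arrangements allow) and the same adjusted value of 0.05. Between corpus and cauda the mean change was -0.045 (exact permutation p = 0.867, adjusted p = 0.867), with 0.01 in whole tissue and -0.10 in epithelial cells. Within 1 preparation the permutations cannot go below 0.1 for whole tissue or 0.333 for epithelial cells, and these were the values found there for both comparisons with the caput.

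**Figure D3:**
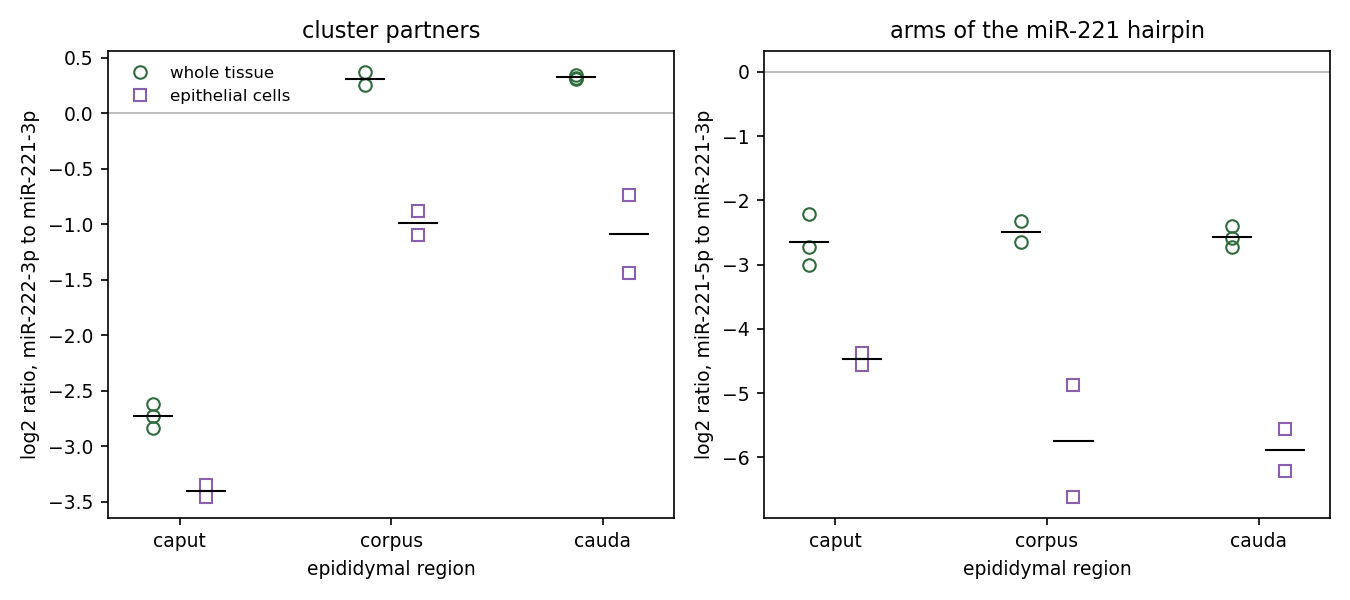
Log2 ratio of miR-222-3p to miR-221-3p (left) and of miR-221-5p to miR-221-3p (right) in each library, by region and preparation; horizontal bars are group means. The ratio of the partners lies at or below -2.62 in all caput libraries and at or above -1.44 in all others, while the ratio of the arms of miR-221 in whole tissue spans -3.00 to -2.22 with the regions overlapping.

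Since both 3p products carry the seed GCUACAU, their summed level was also described. In whole tissue the sum was between 535 and 587 CPM in the caput, 766 and 868 in corpus libraries and 851 and 1119 in cauda libraries, with a rise in the sum smaller than that of miR-222-3p alone. The share of miR-222-3p in the sum went from between 12.3 and 13.9% in the caput to between 54.3 and 56.4% in corpus libraries and 55.3 and 55.9% in cauda libraries. In epithelial cells the sum was between 1205 and 1242 CPM in the caput, 1736 and 2063 in corpus libraries and 2074 and 2336 in cauda libraries, with shares of miR-222-3p between 8.27 and 8.82%, 31.8 and 35.1%, and 26.9 and 37.4%.

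The other arm of the miR-221 hairpin was called between no regions. miR-221-5p had 77.8, 63.5 and 98.8 CPM in the caput libraries of whole tissue, 55.3 and 75.4 in corpus libraries and 74.6, 72.0 and 73.7 in cauda libraries, and all regions overlapped. Its log2 fold changes were -0.29 (95% interval -0.75 to 0.18) from caput to corpus, 0.18 (-0.29 to 0.64) from corpus to cauda and -0.11 (-0.51 to 0.28) from caput to cauda, with adjusted p = 0.262, 0.472 and 0.575 from limma. With library totals the first and the last of these were 0.05 and 0.24, so that their direction depended on the scaling. The 5p arm made up between 12.4 and 21.5% of the count of the 3p arm in whole tissue.

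In epithelial cells miR-221-5p had 15 and 16 counts in the caput libraries, 1 and 4 in those of the corpus and 5 and 6 in those of the cauda, and it entered the tests only through the caput, where it was highest. Its CPM were 46.7 and 51.5, 8.11 and 40.8, and 18.6 and 28.7 in that order. The log2 fold changes of -1.16 from caput to corpus (95% interval -2.68 to 0.37, adjusted p = 0.257 from limma) and -1.03 from caput to cauda (-2.30 to 0.25, adjusted p = 0.173) leave room for a large fall as well as for none. The first of them was -0.14 (adjusted p = 0.933 from limma) without corpus replicate 1 and -2.03 (adjusted p = 0.0934) without corpus replicate 2. Per count of the 3p arm, the 5p arm amounted to between 0.685 and 4.69% in epithelial cells, below every whole tissue library. The change of the log2 ratio of the arms between regions gave exact permutation p = 0.4, 0.783 and 0.217 from caput to corpus, corpus to cauda and caput to cauda, with adjusted values of 0.6, 0.867 and 0.433 over the 6 ratio tests.

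miR-222-5p, the other arm of the miR-222 hairpin, was named beside the members because it comes from the same precursor as the strand that rose. Its whole tissue libraries had 7, 15 and 9 counts for caput, 6 and 9 for corpus and 7, 8 and 10 for cauda, with overlap between all regions. The log2 change over the whole duct was -0.36 (95% interval -1.25 to 0.54, adjusted p = 0.436 from limma) and that from caput to corpus was -0.19 (-1.23 to 0.85, adjusted p = 0.74), and it was tested in both only through the caput, where its mean count was highest. The epithelial libraries had 6 and 2 counts for caput, 0 and 0 for corpus and 2 and 0 for cauda, too few to compare regions at this depth.

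To set the partners beside other miRNA genes of the same arrangement, hairpins on 1 strand no more than 10 kb apart were paired with their next neighbour. Only hairpins with a tested strand that comes from a single gene were used, and hairpins between them were passed over. The log2 fold changes of their more abundant such strands were compared. These pairs share libraries, and within larger clusters they share hairpins, so the numbers are descriptive. In whole tissue from caput to corpus, miR-221 and miR-222 differed by 3.04 where the median of the other 52 pairs was 0.36, and 0 pairs differed more (the largest other difference was 1.77). Over the whole duct they differed by 3.05 beside a median of 0.48 over 58 other pairs, and 1 pair differed more, that of miR-17-5p and miR-18a-5p with 3.25, named after its values were seen. Between corpus and cauda they differed by 0.0094, less than every one of the other 57 pairs, whose median was 0.29.

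In epithelial cells the difference between miR-221 and miR-222 was 2.40 from caput to corpus and 2.30 from caput to cauda, with medians of 0.60 over 20 and 0.76 over 24 other pairs and 0 pairs above it in either comparison. Beyond the corpus it was 0.11, and 20 of the 23 other pairs differed more.

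**Figure D4:**
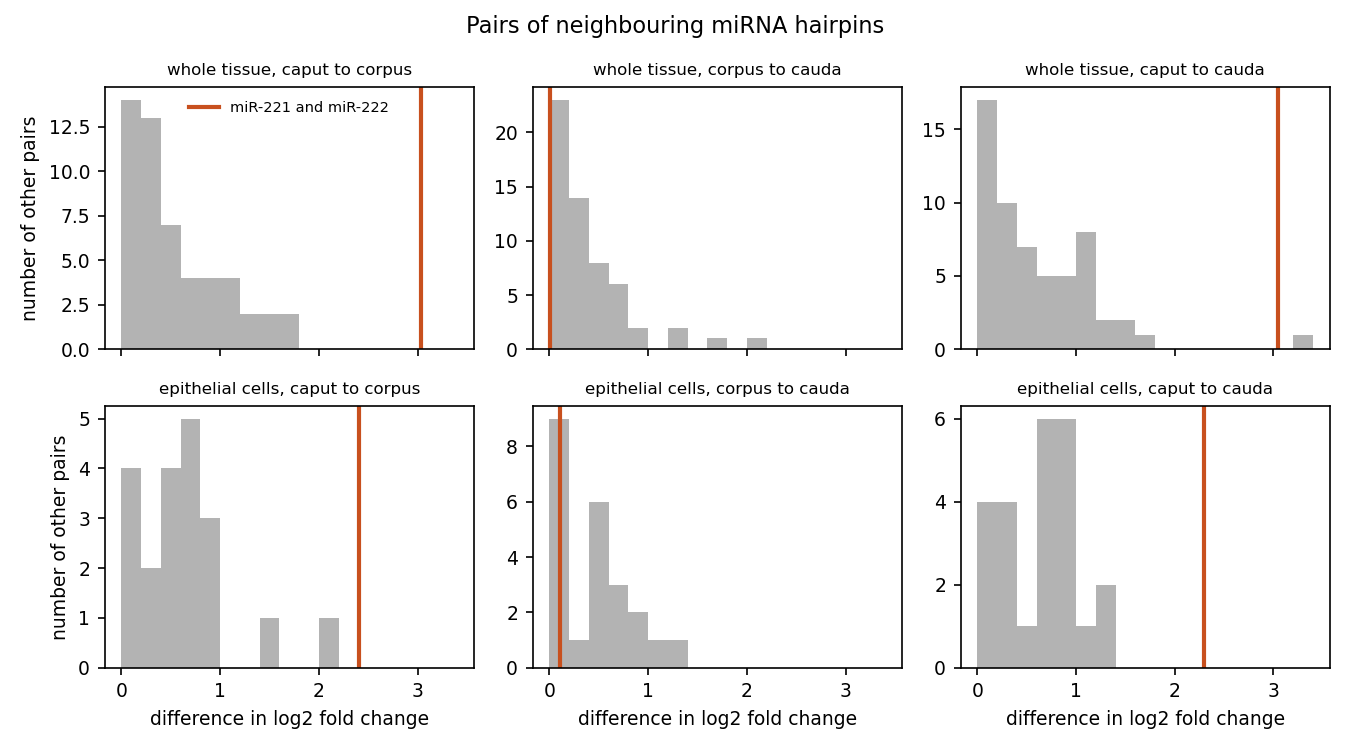
Absolute difference in log2 fold change between neighbouring hairpins no more than 10 kb apart, for 6 comparisons (whole tissue above, epithelial cells below); grey bars count the other pairs and the line marks miR-221 and miR-222. The line stands at 3.04 and 2.40 from caput to corpus, beyond all other pairs, and at 0.0094 and 0.11 from corpus to cauda.

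Some miRNAs carried different names in the preparations, such as miR-126a-5p in whole tissue and miR-126-5p in epithelial cells. Such miRNAs were left out of the fit of all 14 libraries. The change of miR-222-3p was then compared between the preparations in 1 limma-voom fit of all 14 libraries. That fit covered the 194 miRNAs identified in both under the same name. The epithelial change minus the whole tissue change was 0.07 (log2, 95% interval -0.79 to 0.94, adjusted p = 0.944) from caput to corpus and -0.11 (-0.91 to 0.69, adjusted p = 0.837) from caput to cauda. For miR-221-3p it was 0.71 (0.24 to 1.18, adjusted p = 0.0747) and 0.65 (0.24 to 1.06, adjusted p = 0.0225), the latter below 0.05 but short of 2-fold. Of all 194 miRNAs, 4.12% were called in the first of these comparisons and 20.1% in the second, and 0 of 3 members in either. These counts of 8 and 39 miRNAs went to between 0 and 10 and between 20 and 40 when single libraries were left out, the lowest without corpus replicate 1 and without cauda replicate 1 of the epithelial cells. Between corpus and cauda 0 of 3 members were called as well, against 6.7% of all, with differences of -0.06 for miR-221-3p, -0.15 for miR-221-5p and -0.19 for miR-222-3p (adjusted p = 0.892, 0.924 and 0.774 from limma). By unadjusted p, miR-221-3p was under 0.05 in both comparisons with the caput (0.00616 and 0.00453) and the other members were not in any, and edgeR's test called 0 members as well.

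Between the preparations, the partners also differed in level. In the fit of all libraries, which were scaled together for it, miR-221-3p had 491 ± 17.5 CPM in whole tissue and 963 ± 96.3 in epithelial cells of the caput (SD, n = 3 and 2), 386 ± 22.0 and 1243 ± 178 in the corpus (n = 2 and 2) and 482 ± 60.7 and 1464 ± 10.9 in the cauda (n = 3 and 2). It was higher in epithelial cells by a log2 fold change of 0.97 in the caput (adjusted p = 3.67e-05 from limma, just short of 2-fold), 1.67 in the corpus (adjusted p = 4.33e-06) and 1.61 in the cauda (adjusted p = 2.6e-07). miR-222-3p differed by 0.29 (95% interval -0.39 to 0.96), 0.36 (-0.18 to 0.90) and 0.17 (-0.25 to 0.60), with adjusted p = 0.451, 0.227 and 0.46 from limma. The preparations were counted in separate tables, and an effect of the table cannot be told apart from one of the preparation. Marker sums, scaled within each preparation, also differed. In the caput of whole tissue and of epithelial cells, endothelial markers had sums of 14776 to 18250 and 25517 to 35754 CPM. Smooth muscle markers had 53228 to 65976 and 144524 to 195704 CPM, and epithelial ones 21881 to 23681 and 26042 to 28510. In the corpus the endothelial sums overlapped, as did the smooth muscle sums in the cauda. The part of these cells in the differences was not tested.

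miR-221-5p was lower in epithelial cells than in whole tissue, called in the corpus (log2 fold change -1.57, adjusted p = 0.0263 from limma) and in the cauda (-1.73, adjusted p = 0.00594), with -0.87 in the caput (adjusted p = 0.0631). In the corpus the value was -0.74 (adjusted p = 0.373) without epithelial replicate 1 and -1.45 (adjusted p = 0.0679) without whole tissue replicate 2, and in the cauda it was -1.50 (adjusted p = 0.112) without epithelial replicate 1, so that these calls depend on single libraries. Of the 3 members, 0, 2 and 2 were called between preparations in caput, corpus and cauda, against 37.1%, 30.4% and 39.7% of all miRNAs. In epithelial cells miR-221-5p entered this fit only through its mean count in the caput (15.5, against 2.5 in the corpus and 5.5 in the cauda).

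By the correlation of log2 CPM over the libraries of a preparation, the miRNAs most like miR-222-3p in whole tissue (8 libraries) were miR-1247-5p, miR-196a-5p and miR-465b-3p with Pearson's r of 0.994, 0.993 and 0.990, and in epithelial cells (6 libraries) miR-205-5p, miR-196a-5p and miR-881-3p with 0.995, 0.962 and 0.947. miR-196a-5p, whose genes lie in the Hox clusters, was common to both and rose from caput to cauda by 4.66 (log2) in whole tissue and 4.11 in epithelial cells. miR-205-5p, an epithelial miRNA, changed by 0.97 from caput to corpus of epithelial cells, with an adjusted p of 0.00424 but short of 2-fold. The miRNAs most like miR-221-3p were others, miR-203-5p, miR-30a-3p and miR-203-3p in whole tissue (0.944, 0.924 and 0.905) and miR-300-3p, miR-146a-5p and miR-25-3p in epithelial cells (0.961, 0.956 and 0.941). Between the partners themselves r took the value -0.598 for whole tissue and 0.798 for epithelial cells. These values describe few libraries in 3 region clusters and carry no test.

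Counts of listed miRNAs that were called can be set beside the shares called over all miRNAs tested. From caput to corpus, corpus to cauda and caput to cauda these shares were 14.1%, 14.4% and 27.9% higher and 15.9%, 12.9% and 25.4% lower in whole tissue, and 6.34%, 6.77% and 13.9% higher and 5.85%, 4.17% and 12% lower in epithelial cells. Of the other miRNAs whose hairpins RefSeq places on chromosome X only, 18 of the 39 tested rose from caput to corpus of whole tissue and 2 fell, with a median log2 fold change of 0.83 beside -0.05 over all miRNAs tested. From caput to cauda 21 of 40 rose and 8 fell (median 1.78 beside -0.05), and from corpus to cauda 11 of 39 rose and 4 fell (0.65 beside 0.05). In epithelial cells 4 of 17 rose and 1 fell from caput to corpus (median 0.08 beside -0.15), 1 of 18 rose and 1 fell from corpus to cauda (-0.29 beside 0.08) and 5 of 19 rose and 1 fell from caput to cauda (0.51 beside -0.0014). The most abundant of them in both preparations was miR-98-5p, a member of the let-7 family. With library totals or DESeq2's size factors the medians stayed on the same side of those of all miRNAs in each of these comparisons.

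Among miRNAs known from the vessel wall (such as miR-126, miR-143, miR-145, miR-21 and those of the miR-23, miR-27 and miR-24 clusters), 1 of 11 tested rose and 0 fell from caput to corpus of whole tissue, the step at which miR-222-3p rose and at which 14.1% of all miRNAs tested were called as higher and 15.9% as lower. Between corpus and cauda 2 of 12 rose and 1 fell, and from caput to cauda 3 of 12 rose and 0 fell. In epithelial cells 1 of 11 rose and 2 fell from caput to corpus, 3 rose and 0 fell from corpus to cauda, and 1 rose and 0 fell from caput to cauda. With library totals the first of these steps in whole tissue had a median of 0.29 beside 0.28 over all miRNAs. Under the main scaling the medians were -0.04, 0.62 and 0.43 in whole tissue and -0.30, 0.49 and 0.48 in epithelial cells (log2, in the same order), beside -0.05, 0.05, -0.05, -0.15, 0.08 and -0.0014 over all miRNAs tested. miR-143-3p was the most abundant of them. The list shares 2 of its miRNAs with the smooth muscle markers, 2 with the endothelial markers and, in whole tissue, 1 with the leukocyte markers read next.

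Marker miRNAs of the cell types that the samples can hold were read beside these changes, with the shares called over all miRNAs tested as given above for the chromosome X list. In bulk samples fewer cells of a type and less RNA per cell cannot be told apart. In whole tissue from caput to corpus, 7 of 10 germ cell markers (a list that shares 5 miRNAs with those of chromosome X above) and 4 of 4 red blood markers tested rose, as did 1 of 4 leukocyte and 1 of 4 fibroblast markers (3 of 4 fibroblast markers with library totals), while 0 of 3 smooth muscle, 0 of 2 striated muscle and 0 of 2 endothelial markers were called and 1 of 6 epithelial ones fell. The summed germ cell markers went from between 4178 and 5398 CPM in the caput to between 4734 and 5570 in corpus libraries and 10007 and 13057 in cauda libraries. Most of this sum was miR-34c-5p, with region means of 4124, 3617 and 8138 CPM, which was not called from caput to corpus (log2 fold change -0.18, adjusted p = 0.329 from limma), whereas the median over the 10 germ cell markers was 1.5 (log2) at that step. In epithelial cells, scaled on their own, the germ cell markers summed to between 3853 and 4381 CPM in the caput. Their corpus libraries had between 2318 and 3465 CPM and their cauda libraries between 2510 and 6166. The most abundant was again miR-34c-5p, with a caput mean of 3684 CPM. The caput sums of the preparations thus overlapped, so this list did not set them apart there. Between corpus and cauda of whole tissue, where miR-222-3p was not called, 4 of 4 smooth muscle, 8 of 10 germ cell, 3 of 5 red blood and 1 of 5 leukocyte markers rose, 2 of 6 epithelial ones fell, and 0 of 4 striated muscle, 0 of 2 endothelial and 0 of 4 fibroblast markers were called. Over the whole duct, beside the 7.31-fold rise of miR-222-3p, 4 of 4 smooth muscle, 4 of 4 striated muscle, 5 of 5 red blood, 8 of 10 germ cell, 3 of 5 leukocyte and 1 of 4 fibroblast markers rose, 5 of 6 epithelial ones fell and 0 of 2 endothelial ones were called, where 27.9% of all miRNAs tested were called as higher and 25.4% as lower. With library totals the last count of germ cell markers was 10 of 10, that of leukocyte markers 5 of 5 and that of fibroblast markers 2 of 4, and 1 of 6 epithelial markers fell. In epithelial cells from caput to corpus, 3 of 7 germ cell markers and 1 of 6 epithelial ones rose and 2 of 2 endothelial ones fell, and 0 of 3 smooth muscle, 0 of 1 striated muscle, 0 of 2 red blood, 0 of 2 leukocyte and 0 of 4 fibroblast markers were called. With library totals 2 of 6 epithelial markers rose and 1 of 2 endothelial ones fell there. In these cells, between corpus and cauda, 2 of 2 endothelial, 2 of 3 red blood and 1 of 2 leukocyte markers rose and 2 of 6 epithelial ones fell (1 of 6 with library totals), with 0 called among the 7 germ cell, 3 smooth muscle, 4 fibroblast and 1 striated muscle markers. Between their caput and cauda 3 of 3 red blood, 2 of 2 leukocyte, 2 of 7 germ cell and 1 of 4 fibroblast markers rose and 0 of the 6 epithelial, 3 smooth muscle, 2 endothelial and 1 striated muscle markers were called, while with library totals 2 of 6 epithelial and 2 of 4 fibroblast markers rose. In the epithelial cells the summed endothelial markers went from between 25517 and 35754 CPM in the caput to 13092 and 14322 in corpus libraries and 46640 and 56668 in cauda libraries. At 0 in every library of a group were miR-206-3p in the caput of whole tissue and, in epithelial cells, miR-880-3p in the caput and miR-34c-3p in the corpus. The part of these cell types in the levels of miR-221 and miR-222 was not tested.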

How the data were processed

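Per the paper's methods, trimmed reads were cleared of PhiX, adaptor, ribosomal and mitochondrial matches, then mapped to mm10 and miRBase release 21. The submitters' processing notes list CASAVA 1.8.2, Bowtie 1.1.1 and limma. Each preparation has 1 table, in which the authors deposited unnormalized expected counts for each mature miRNA. The epithelial table carries 0.001 added to every value, which was removed. Of the per-library columns, 0 were left out. The methods give 2 replicates, while 3 caput and 3 cauda libraries of whole tissue were deposited; p-values measure the spread between libraries, which may be technical.

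Values were rounded, which changed a total by at most 0.00337%. limma-voom (limma 3.58.1 under R 4.3.3) was run after TMM scaling by edgeR 4.0.16, once for each preparation and once for all 14 libraries. Tests covered miRNAs with a mean above 10 counts in at least 1 of the regions compared. For all libraries together, this held in at least 1 region of each preparation, with the same name in both. The p-values were adjusted over all miRNAs tested (Benjamini-Hochberg). Ratios within a library were compared by exact permutation. The alternatives were edgeR's and DESeq2's (1.42.0) tests, other scalings, filters and pseudocounts, a replicate block and fits without each library. The fit of each preparation was run on simulated data with planted changes in the cauda, for caput to cauda only. The fit of all 14 libraries was not run on simulated data.

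The members, lists and alternatives were chosen with earlier results of these data known. The miRNAs named beside the members are miR-222-5p, the 3 with the highest correlation with each 3p member in each preparation, and the most abundant miRNA of a list. The pair of neighbours that differed more than miR-221 and miR-222, the markers at 0 in a group and the examples given for a list fall outside this rule. The replicate numbers of the titles name libraries and are not said to mark a shared animal or batch.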

Additional observations from a re-analysis of the deposited data

Results flagged for a closer look

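The change of miR-221-3p from caput to cauda differed between the preparations in the interaction test of all 14 libraries. The epithelial change exceeded the whole tissue change by 0.65 (log2, adjusted p = 0.0225 from limma), with region means in the scaling of that fit of 963 CPM in the caput and 1464 in the cauda of epithelial cells and of 491 and 482 in whole tissue. The difference was short of 2-fold. With library totals, edgeR's test or a replicate block it was between 0.42 and 0.64, with adjusted p between 0.0256 and 0.169, and without single libraries it was between 0.43 and 0.74, with adjusted p between 0.0149 and 0.168.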

How the results depend on the processing

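The rise of miR-222-3p from the caput was called under every alternative tried, with log2 fold changes between 2.53 and 2.93 (to the corpus) and 2.77 and 3.22 (to the cauda) in whole tissue and between 2.42 and 2.78 and between 2.40 and 3.11 in epithelial cells, the highest adjusted p being 0.0471 for caput to corpus of epithelial cells without caput replicate 2. Alternatives to the main setting other than leaving out a single library gave 209 values for the members and ratios, those of this rise included. Of these, 201 kept direction and side of the threshold. With single libraries left out, 25 of 456 such values turned direction. Among the 3 members depth limits miR-221-5p most, with 1 to 16 counts per epithelial library.

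With library totals, values turned to 0.047 (miR-221-5p, whole tissue, caput to corpus), 0.17 and 0.24 (miR-221-3p and miR-221-5p, whole tissue, caput to cauda) and -0.21 (difference between preparations for miR-222-3p, caput to corpus), and miR-221-3p in the caput became called between preparations at 1.27. In whole tissue alone, the log2 ratio of the partners changed by 0.011 from corpus to cauda, and that of the arms of miR-221 by 0.16 from caput to corpus and 0.081 from caput to cauda, turning their direction. The cause was not tested.

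Without single libraries the ranges were -0.015 to 0.42 (miR-221-5p, whole tissue, corpus to cauda), -0.19 to 0.13 (miR-221-5p, whole tissue, caput to cauda) and -0.20 to 0.49 (miR-222-3p, epithelial cells, corpus to cauda). For differences between preparations in the change from caput to corpus they were -1.88 to 0.10 (miR-221-5p) and -0.31 to 0.22 (miR-222-3p), from corpus to cauda -0.19 to 0.045 (miR-221-3p), -1.15 to 0.83 (miR-221-5p) and -0.54 to 0.21 (miR-222-3p), and from caput to cauda -0.65 to 0.11 (miR-222-3p). For epithelial cells against whole tissue they were 0.87 to 1.07 (miR-221-3p, caput), -1.06 to -0.66, -2.71 to -0.74 and -2.21 to -1.50 (miR-221-5p, caput, corpus and cauda) and -0.33 to 0.43 (miR-222-3p, cauda). For ratios from corpus to cauda they were -0.22 to 0.13 (partners) and -0.55 to 0.32 (arms).

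With at least 10 counts in every library, called miRNAs fell from 100 to 64 (whole tissue, caput to corpus), from 189 to 115 (whole tissue, caput to cauda) and from 56 to 28 (epithelial cells, caput to cauda), where fewer were tested. With library totals those that differed between preparations from caput to corpus went from 8 to 3. Without single libraries, epithelial calls (caput to corpus, corpus to cauda, caput to cauda) ranged from 10 to 30, 4 to 27 and 26 to 60, against 25, 21 and 56 with all. The counts that moved by over 1.5 times were 16, 10 and 13 without caput replicate 1, caput replicate 2 and corpus replicate 1, then 8, 4 and 8 without caput replicate 2, corpus replicate 1 and corpus replicate 2, then 26 without caput replicate 2. Calls for a difference between preparations ranged from 0 to 10, 6 to 16 and 20 to 40, against 8, 13 and 39. They moved as far without corpus replicate 1 or 2 of either preparation or epithelial caput replicate 1 (0 to 2), without whole tissue corpus replicate 1 or cauda replicate 2 or epithelial corpus replicate 2 or cauda replicate 2 (6 to 8), and without epithelial corpus replicate 1 or 2 or cauda replicate 1 (20 to 25).

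Same-numbered libraries of whole tissue deviated together with r between -0.06 and 0.22, and those of epithelial cells with r between -0.18 and 0.20, so the numbers were not taken as pairs. With a replicate block miR-222-3p changed by 2.60, 0.27 and 2.87 in whole tissue and by 2.59, 0.14 and 2.73 in epithelial cells (caput to corpus, corpus to cauda, caput to cauda), and 102, 101, 187, 27, 22 and 52 miRNAs were called. Crossed numbers in the epithelial cauda, chosen after seeing the data, gave 32 calls from corpus to cauda (21 without a block) and 64 from caput to cauda (56).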
